A study of Homo sapiens with 8 samples.

Results

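The transcripts described here are long noncoding RNAs with a LINC symbol (long intergenic) or a symbol that ends in -AS and a digit (antisense to a named gene), read from a table of RNA abundance in 2 lines of acute myeloid leukaemia cells, HL60 and Kasumi-1. A transcript was taken as a member when its symbol stood on 1 row and its FPKM (fragments scaled to transcript length and to library size) reached at least 1 in 2 or more of the 8 libraries. Of 25593 gene rows, 12511 met that level. The table held 273 rows with such symbols, from 270 symbols, of which 267 were on 1 row, and 49 of these were members, 20 named LINC and 29 named antisense. The other 218 candidates were under the level rule, and 120 candidates were listed at 0 in all 8 libraries. Just inside the rule, the second highest FPKM was 1.02 for LINC00115, 1.12 for UCKL1-AS1 and 1.13 for LINC00256B. Just outside it was 0.995 for A1BG-AS1, 0.974 for LINC00174 and 0.966 for ENO1-AS1.

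The study asked how each line's transcriptome differed after 24 h with 100 nM cinobufagin, a cardiac steroid from toad venom that blocks the Na+/K+-ATPase, from the same line with 0 nM. The 4 groups were untreated HL60, treated HL60, untreated Kasumi-1 and treated Kasumi-1, with 2 libraries each. HL60, a promyelocytic line with extra MYC copies, was kept in RPMI-1640 with penicillin-streptomycin and 10% fetal bovine serum, and Kasumi-1, a myeloblastic line with the RUNX1-RUNX1T1 fusion, in the same medium with 20%, so serum and cell line cannot be told apart. Whether the libraries of 1 group are separate cultures is not stated in the labels, and p-values here cover no more than the spread among these libraries, which may be technical.

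Long noncoding RNAs are transcribed by RNA polymerase II and often spliced and polyadenylated like messenger RNAs, but most are not translated. Some are hosts whose introns are processed into small nucleolar RNAs (snoRNAs), some act in the nucleus on chromatin or splicing, some act in the cytoplasm, and for many no function is known. Antisense transcripts start beside or within a protein-coding gene on the other strand, often from a shared bidirectional promoter, and several transcripts first named as noncoding were later found to encode small proteins.

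The promoters of 4 members are given because these members recur in the results: LINC00339 had the largest fall of all members on the scale tested, and LINC00263, MCM3AP-AS1 and IDI2-AS1 lie beside genes of fatty acid or sterol synthesis. Each line holds 250 bases before to 50 after the gene's start, 5′ to 3′ on the gene's own strand, from the RefSeq table of build GRCh38.p14. For LINC00339 it is the first of the starts in that table. Capitals mark a CCAAT box (CCAAT, or ATTGG on the other strand), an AP-1 site (TGACTCA) or a GC box (GGGGCGGGG).
LINC00339, chr1:22024941-22025240, plus strand: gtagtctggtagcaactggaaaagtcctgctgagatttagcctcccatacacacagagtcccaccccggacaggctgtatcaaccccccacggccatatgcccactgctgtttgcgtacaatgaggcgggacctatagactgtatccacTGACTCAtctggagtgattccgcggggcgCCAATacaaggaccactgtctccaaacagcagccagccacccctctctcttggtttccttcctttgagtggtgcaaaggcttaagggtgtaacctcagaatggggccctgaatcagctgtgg
LINC00263 (OLMALINC), chr10:100373326-100373625, plus strand: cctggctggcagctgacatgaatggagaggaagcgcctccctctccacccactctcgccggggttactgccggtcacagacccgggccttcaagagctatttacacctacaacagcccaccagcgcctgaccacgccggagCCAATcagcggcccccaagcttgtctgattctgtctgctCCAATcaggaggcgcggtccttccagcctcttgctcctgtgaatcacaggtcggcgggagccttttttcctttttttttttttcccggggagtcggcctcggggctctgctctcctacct
MCM3AP-AS1, chr21:46228981-46229280, plus strand: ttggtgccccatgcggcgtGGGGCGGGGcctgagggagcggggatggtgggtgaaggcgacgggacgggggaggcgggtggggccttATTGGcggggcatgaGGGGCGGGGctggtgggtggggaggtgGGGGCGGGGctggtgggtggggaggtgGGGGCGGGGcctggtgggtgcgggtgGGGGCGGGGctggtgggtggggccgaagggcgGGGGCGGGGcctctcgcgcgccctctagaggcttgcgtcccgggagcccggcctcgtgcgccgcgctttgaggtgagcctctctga
IDI2-AS1, chr10:1022387-1022686, plus strand: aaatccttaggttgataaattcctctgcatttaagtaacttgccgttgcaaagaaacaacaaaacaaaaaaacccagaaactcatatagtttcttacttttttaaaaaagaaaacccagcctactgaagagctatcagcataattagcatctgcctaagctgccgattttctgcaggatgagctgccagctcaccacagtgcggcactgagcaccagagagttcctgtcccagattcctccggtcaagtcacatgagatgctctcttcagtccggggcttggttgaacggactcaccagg
All 3 of those motifs were absent from the printed IDI2-AS1 window. Both strands were searched, and no motif contains another. Promoters could be matched for 38 of the 49 members. A CCAAT box was in 15 of these (39.5%) and in 39.7% of the 27305 genes with a promoter in the table. A GC box was in 9 (23.7%, against 18.5% of all), an AP-1 site in 3 (7.89% against 6.05%), an E-box (CACGTG) in 2 (5.26% against 8.77%) and a cyclic AMP response element (TGACGTCA) in 1 (2.63% against 2.25%). An exact match to the canonical NF-kB site was found in 0 member promoters and 0.227% of all, and one to a sterol regulatory element in 0 member promoters and 0.0586% of all. The GC box and the sterol element were added to the search after the values had been seen.

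Each library held 10623 to 11371 genes at an FPKM of 1 or more, and with no read totals given in the sources used here, no counting interval could be set. Replicate libraries correlated with Pearson's r of 0.967 to 0.974 over the tested genes and 0.990 to 0.995 over the 49 members. The widest gap between replicates of a member was that of ARSD-AS1, 1.09 on the log2 scale in untreated Kasumi-1. Markers listed for Kasumi-1 set it apart from HL60. RUNX1T1, CD34 and TRH were at 0 in all HL60 libraries and averaged 19.1, 59.8 and 89.0 FPKM in untreated Kasumi-1. The myeloid granule genes listed for HL60 did not mark that line. MPO, ELANE, PRTN3 and AZU1 averaged 3327, 206.3, 539.4 and 331.5 FPKM in untreated HL60. In untreated Kasumi-1 they were higher, at 6056, 1226, 2203 and 779.1. Of 11 markers of other cell types, HBB and MS4A1 were at 0 in all 8 libraries, and 2 or 3 averaged at least 1 FPKM in each group. Their summed FPKM was 29.2 and 31.1 in untreated HL60, 101 and 91.6 in treated HL60, 92.8 and 93.4 in untreated Kasumi-1 and 85.4 and 83.5 in treated Kasumi-1, most of it from NKG7 in HL60 (a mean of 25.7 untreated and 93.0 treated) and from EPCAM in Kasumi-1 (77.9 untreated), and its part in the results was not tested.

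The members were mostly low in abundance, with 2 far above the others. Their median level was 1.701 FPKM in untreated HL60, 1.41 in treated HL60, 2.06 in untreated Kasumi-1 and 2.12 in treated Kasumi-1, against 8.77 to 8.96 for all tested genes. C17orf76-AS1, now named SNHG29, stood at 1062 and 1055 FPKM in the untreated HL60 libraries, 636 and 679 in the treated ones, 1479 and 1432 in untreated Kasumi-1, and 1633 and 1518 in treated Kasumi-1. ZNFX1-AS1, now named ZFAS1, stood at 307 and 267, 498 and 449, 338 and 304, and 529 and 421 FPKM in the same order. Both are hosts of box C/D snoRNAs, and together they made up 86.3% to 90.8% of the members' summed FPKM in each library.

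Next in untreated HL60 came LINC00152 (CYTOR, reported as a growth-related cytoplasmic transcript) at 36.9 ± 4.1 FPKM (SD, n = 2), FBXO22-AS1 at 28.6 ± 4.5, EPB41L4A-AS1 at 18.2 ± 1.2 and HNRNPU-AS1 at 10.2 ± 0.29. The libraries of LINC00152 and FBXO22-AS1, 39.8 and 34.0 against 31.8 and 25.4 FPKM, did not overlap, but the gap between them was smaller than either SD. In untreated Kasumi-1 the order after the first pair was EPB41L4A-AS1 at 51.1 ± 0.49, LINC00152 at 23.4 ± 5.2, FBXO22-AS1 at 21.9 ± 1.3 and LINC00339 at 9.93 ± 0.99, and there LINC00152 (27.1 and 19.6) and FBXO22-AS1 (20.9 and 22.8) overlapped. Most other members averaged between 1 and 10 FPKM, 25 in untreated HL60 and 31 in untreated Kasumi-1, and 18 and 13 averaged under 1.

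**Figure D1:**
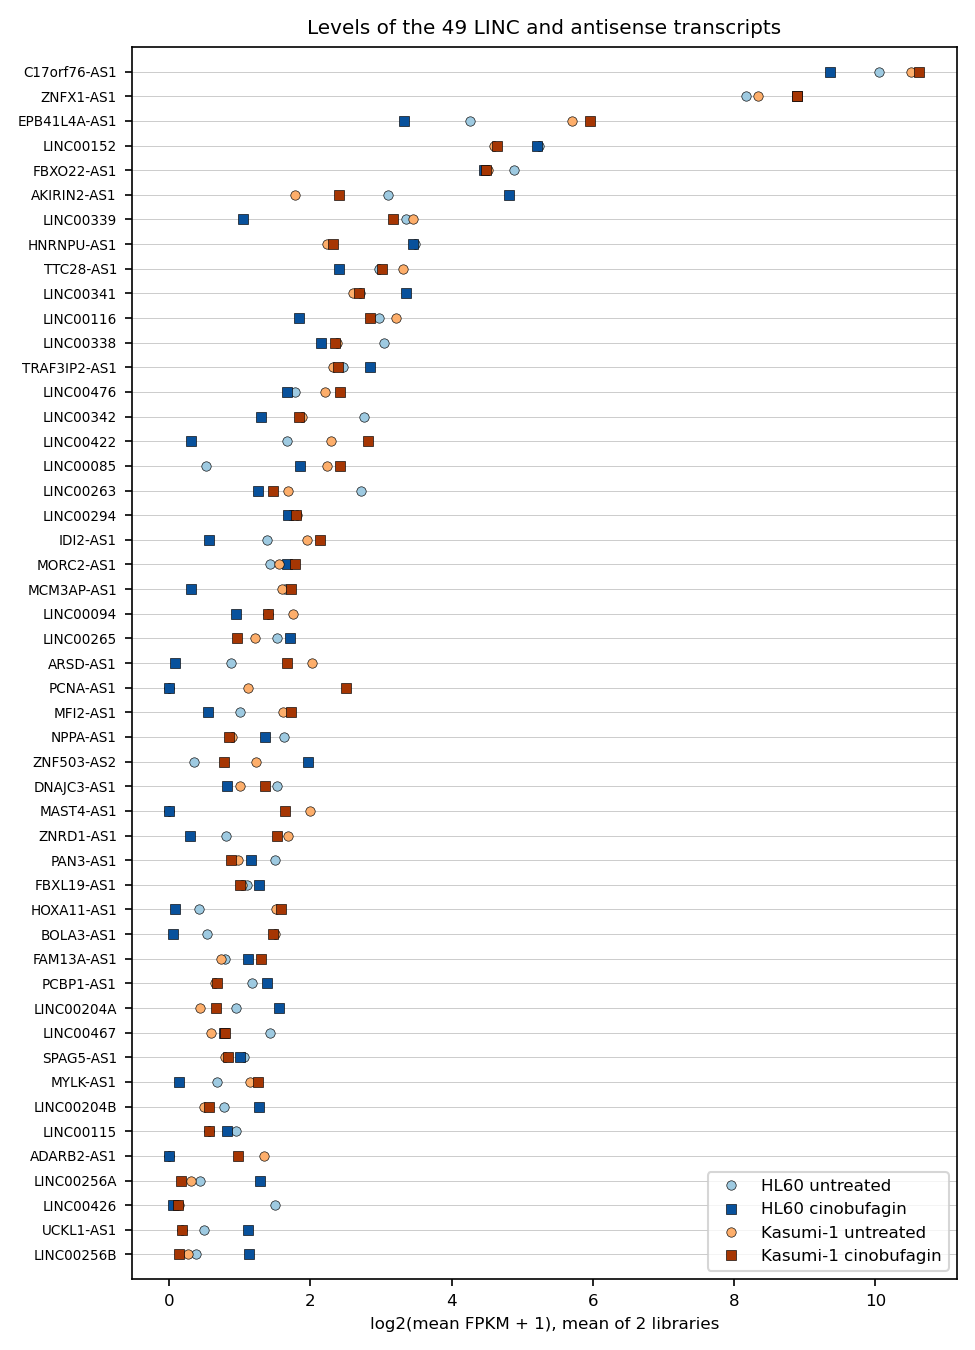
Mean level of each of the 49 members in the 4 groups, as log2(mean FPKM + 1) on the horizontal axis (circles untreated, squares with 100 nM cinobufagin, blue HL60, orange Kasumi-1; each point is the mean of 2 libraries). C17orf76-AS1 and ZNFX1-AS1 lie far to the right of the other 47, most of which have means under 10 FPKM.

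The untreated lines differed in many members. Of 49, 15 were higher and 16 lower in Kasumi-1 than in HL60 and 18 did not pass (63.3% called, against 69.7% of all tested genes, 35.9% higher and 33.8% lower). A call here and below is an adjusted p under 0.05 by limma on log2(FPKM + 1), with Benjamini-Hochberg adjustment over all 12511 tested genes. EPB41L4A-AS1, a snoRNA host, was at 19 and 17.3 FPKM in HL60 and 51.5 and 50.8 in Kasumi-1, a difference of 1.45 (SE 0.08, limma adjusted p = 8.61e-06). LINC00085, now annotated as part of the sperm gene SPACA6, was at 0.571 and 0.309 in HL60 and 4.01 and 3.44 in Kasumi-1 (1.72, SE 0.18). MAST4-AS1 was at 3.46 and 2.52 FPKM in untreated Kasumi-1 while all 4 HL60 libraries listed it at 0, so its pooled spread includes groups without any. For each of these 3 members, both Kasumi-1 libraries were above both HL60 libraries. Among the called members, ADARB2-AS1, BOLA3-AS1, HOXA11-AS1, MAST4-AS1, MYLK-AS1, PCNA-AS1 and ZNRD1-AS1 reached FPKM 1 only in Kasumi-1 libraries. LINC00204A, LINC00204B, LINC00426, LINC00467, PCBP1-AS1 and UCKL1-AS1 reached it only in HL60 libraries. The member rule itself favoured the differences of all of these.

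Lower in Kasumi-1 were AKIRIN2-AS1 (8.29 and 6.83 FPKM in HL60, 1.80 and 3.05 in Kasumi-1; difference -1.34, SE 0.18), HNRNPU-AS1 (10.4 and 10.0 against 3.60 and 3.86; -1.25, SE 0.10), LINC00263 (5.07 and 6.05 against 2.96 and 1.48; -1.06, SE 0.22) and LINC00342 (5.62 and 5.89 against 2.67 and 2.66; -0.88, SE 0.08). LINC00338, the snoRNA host now named SNHG20, also differed by -0.65 and C17orf76-AS1 by 0.46. ZNRD1-AS1 was higher in Kasumi-1 by 0.87, with 0.866 and 0.647 FPKM in HL60 and 2.42 and 1.99 in Kasumi-1. The groups of each of these members did not overlap, which held for 20 members higher and 21 lower in Kasumi-1 (43.0% and 41.5% of all tested genes). NPPA-AS1, antisense to the natriuretic peptide gene NPPA, differed by -0.75, and its call was lost without any 1 of the untreated libraries (adjusted p 0.0519 to 0.0714, differences -0.79 to -0.71). MFI2-AS1 was higher by 0.63, a call lost without untreated HL60 replicate 2 (0.42) or untreated Kasumi-1 replicate 1 (0.54) and with quantile normalization (0.35, adjusted p = 0.163). LINC00152 differed by -0.65, a call lost without untreated HL60 replicate 1 (-0.54) or 2 (-0.76) or untreated Kasumi-1 replicate 2 (-0.43). With no filter on low values the calls of NPPA-AS1 (adjusted p = 0.0738), MFI2-AS1 (adjusted p = 0.096) and LINC00152 (adjusted p = 0.142) were lost as well.

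In HL60, cinobufagin was followed by changes in both directions. Of 49 members, 13 rose, 21 fell and 15 did not pass, so 69.4% were called. Of all tested genes 73.6% were called, 36.0% as higher and 37.6% as lower. The median change was -0.14 for the members and -0.01 for all tested genes, and the members ranged from -2.33 to 1.72. Of the 20 LINC members 7 rose and 9 fell, and of the 29 antisense members 6 rose and 12 fell. Of 38 members at FPKM 1 or more in both libraries of at least 2 groups, 8 rose and 18 fell. Of the other 11, which met the level in both libraries of 1 group or none, 5 rose and 3 fell. The 38 were not all at that level in HL60. BOLA3-AS1, HOXA11-AS1 and ZNRD1-AS1, among the 18 that fell, were under FPKM 1 in every HL60 library. FAM13A-AS1, among the 8 that rose, was under FPKM 1 in every untreated library. At least 2-fold on the fitted scale, 3 members rose and 7 fell (11.9% and 14.1% of all tested genes), and the treated libraries lay wholly above the untreated ones for 15 members and wholly below for 24 (42.2% and 44.7% of all). FPKM is a share of each library, so a change in total messenger RNA per cell would not be seen, and the +1 understates changes of members with low values.

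LINC00339 fell most on the log2(FPKM + 1) scale. It was at 10.2 and 8.29 FPKM in untreated HL60 and 0.771 and 1.34 after cinobufagin, 8.77-fold lower by the means (change -2.33, SE 0.16, limma adjusted p = 2.13e-05). Every treated library was below every untreated one. In Kasumi-1 it stood at 10.6 and 9.23 FPKM untreated and 8.44 and 7.48 treated (-0.29, adjusted p = 0.242). Its neighbour CDC42, a small GTPase of the actin cytoskeleton, rose in HL60 from 97.3 and 102 to 148 and 154 FPKM (0.60, SE 0.06).

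LINC00342, of unknown function, was at 5.62 and 5.89 FPKM in untreated HL60 and 1.58 and 1.32 in treated HL60 (-1.46, SE 0.08, limma adjusted p = 6.94e-06). LINC00422, now LINC00539, was at 2.44 and 1.90 and then 0.128 and 0.352 (-1.36, SE 0.22). TTC28-AS1 was at 7.90 and 5.81 and then 4.10 and 4.52 (-0.55, SE 0.12). In all 3 the treated libraries were below the untreated ones. In Kasumi-1 the values of LINC00342 stayed between 2.47 and 2.69 FPKM in all 4 libraries, and those of LINC00422 were 5.0 and 2.76 untreated and 6.37 and 5.71 treated (0.57, adjusted p = 0.111). LINC00426, chosen after its values were seen because its level was under the minimum for naming, went from 1.94 and 1.73 FPKM to 0.0843 and 0 in HL60 (-1.44, SE 0.09) and was under 0.2 in every Kasumi-1 library. LINC00467 fell by 0.66, from a mean of 1.701 to 0.711 FPKM. LINC00426 and LINC00467 reached FPKM 1 only in the untreated HL60 libraries, so the member rule itself favoured their fall.

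**Figure D2:**
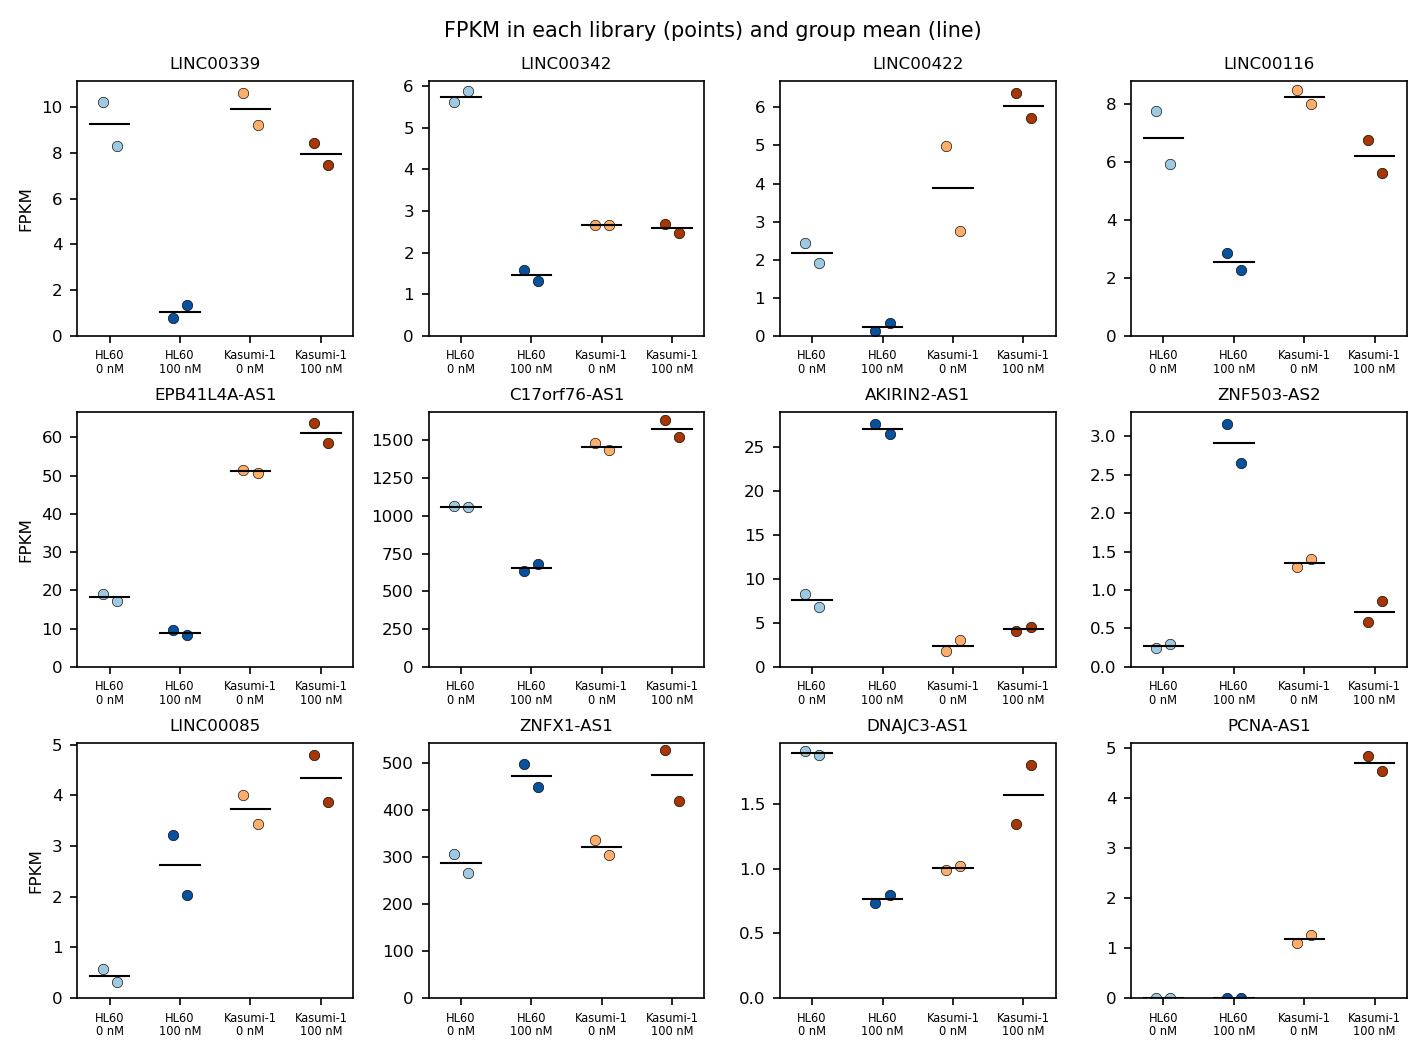
FPKM of 12 members in each library (points; line at the mean of 2), for HL60 and Kasumi-1 with 0 and 100 nM cinobufagin, each panel with its own linear axis from 0. LINC00339, LINC00342, LINC00422, LINC00116, EPB41L4A-AS1 and C17orf76-AS1 are lower in both treated HL60 libraries, AKIRIN2-AS1, ZNF503-AS2, LINC00085 and ZNFX1-AS1 are higher, and PCNA-AS1 differs from 0 only in the Kasumi-1 panels.

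Each of 3 members that fell in HL60 lies beside a lipid synthesis gene that fell too, neighbours that were picked after the values were seen. Of all tested genes, 37.6% were called lower in HL60, and whether such pairs exceed those of unrelated genes was not tested. LINC00263, whose current name OLMALINC comes from oligodendrocyte maturation, lies on the same strand as SCD, the stearoyl-CoA desaturase that makes monounsaturated fatty acids. LINC00263 was at 5.07 and 6.05 FPKM in untreated HL60 and 1.64 and 1.17 after cinobufagin (-1.45, SE 0.22, limma adjusted p = 0.00103), and SCD was at 159.6 and 178 and then 26.9 and 30.4 (-2.52, SE 0.12). Both treated libraries were below both untreated ones for each gene. In Kasumi-1, SCD fell from a mean of 68.8 to 33.9 FPKM (-1.0, adjusted p = 0.0031), while LINC00263 was at 2.96 and 1.48 untreated and 1.63 and 1.91 treated, which overlap (-0.18, adjusted p = 0.606).

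MCM3AP-AS1 overlaps MCM3AP, which encodes a nuclear messenger RNA export factor, and starts head to head with LSS, the lanosterol synthase of the cholesterol pathway. It was at 1.78 and 2.44 FPKM in untreated HL60 and 0.274 and 0.210 in treated HL60, 8.73-fold lower by the means (-1.32, SE 0.13, limma adjusted p = 0.000115). LSS fell from 49.9 and 49.5 to 7.45 and 8.05 FPKM (-2.54, SE 0.06), whereas MCM3AP stood at 18.8 and 21.4 untreated and 21.2 and 20.9 treated (0.07, adjusted p = 0.507). In Kasumi-1 LSS fell by 0.49, and MCM3AP-AS1 was at 2.28 and 1.76 and then 2.44 and 2.16 FPKM, groups that overlap (0.13, adjusted p = 0.502).

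IDI2-AS1 overlaps IDI1 and IDI2, the isopentenyl diphosphate isomerases that supply units for sterols. It was at 1.56 and 1.67 FPKM and then 0.617 and 0.353 in HL60 (-0.82, SE 0.21, limma adjusted p = 0.0109), a call lost without treated HL60 replicate 2 (-0.69, adjusted p = 0.0687), with no filter on low values (adjusted p = 0.0589) or with quantile normalization (-0.60). IDI1 fell from 48.1 and 50.9 to 14 and 14.8 FPKM (-1.71, SE 0.09), and in Kasumi-1 neither passed (IDI1 -0.20 and IDI2-AS1 0.16). IDI2, for which the member is named, went the other way in HL60, from 1.21 and 1.88 to 1.92 and 2.46 FPKM with no overlap, a change that did not pass (0.33, SE 0.14, adjusted p = 0.0768). Of the genes that flank IDI2-AS1, GTPBP4 fell in HL60 (-0.58, SE 0.06) and WDR37 rose (0.40, SE 0.07). Without a stated strand setting for the quantification, reads of IDI2-AS1 and of genes that overlap it could not be told apart with certainty.

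**Figure D3:**
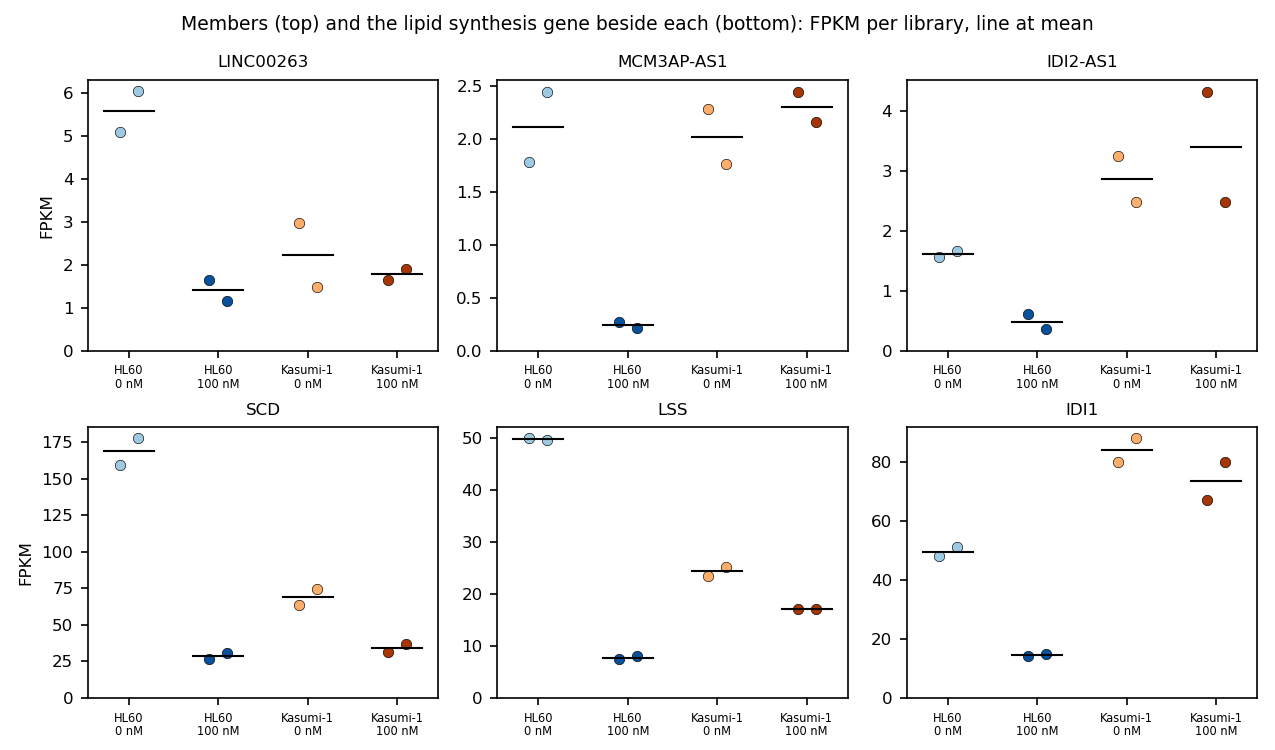
FPKM in each library (points; line at the mean of 2) of 3 members in the top panels and of the lipid synthesis gene beside each in the bottom panels, by line and cinobufagin dose, with linear axes from 0. In HL60 the treated libraries are below the untreated ones in all 6 panels, while in Kasumi-1 this holds for the 3 lipid synthesis genes (for IDI1 by a narrow margin, 79.7 against 80.0) and for none of the 3 members above them.

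The snoRNA hosts among the members did not move together. C17orf76-AS1 fell in HL60 from a mean of 1058 ± 5.1 to 657 ± 31 FPKM (-0.69, SE 0.07, limma adjusted p = 0.000124), EPB41L4A-AS1 from 18.2 ± 1.2 to 8.99 ± 0.91 (-0.94, SE 0.08) and LINC00338 from 7.21 ± 1.1 to 3.45 ± 0.18 (-0.88, SE 0.10). ZNFX1-AS1 rose from 287 ± 29 to 474 ± 34 FPKM (0.72, SE 0.13, limma adjusted p = 0.00224). For each of the 4 hosts the treated and untreated HL60 libraries did not overlap. In Kasumi-1 ZNFX1-AS1 rose as well, while C17orf76-AS1 (0.11, adjusted p = 0.275), EPB41L4A-AS1 (0.25, adjusted p = 0.0678) and LINC00338 (-0.02, adjusted p = 0.903) did not pass. Of the snoRNAs these hosts carry, SNORD49A, SNORD49B, SNORD65 and SNORD12C were listed at 0 in all 8 libraries. The others with a row were SNORD12, SNORD12B, SNORA13 and SCARNA16. SNORD12, carried in an intron of ZNFX1-AS1, was listed at 532 and 173 FPKM in untreated HL60 and 367 and 167 in untreated Kasumi-1 and at 0 in all 4 treated libraries, in which its host was higher. SNORD12B, of the same host, did not follow it: it was at 176 and 114 and then 61.3 and 56.3 FPKM in HL60 and at 0 and 55.3 and then 74.5 and 0 in Kasumi-1, and neither change passed (adjusted p 0.665 and 0.969). SNORA13, of EPB41L4A-AS1, went from 13.2 and 12.8 FPKM to 0 and 0 in HL60 (adjusted p = 0.067) and was at 13.7 and 0 and then 16.8 and 0 in Kasumi-1. SCARNA16, of LINC00338, overlapped between treated and untreated libraries in both lines. Few fragments of so short a RNA give a large FPKM, and libraries selected by poly(A) tail are not made to hold it.

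RefSeq today lists 5 members as protein-coding genes. LINC00116 encodes mitoregulin, a small protein of the inner mitochondrial membrane that takes part in fatty acid oxidation. It was at 7.74 and 5.92 FPKM in untreated HL60 and 2.85 and 2.27 after cinobufagin (-1.13, SE 0.14, limma adjusted p = 0.000401), and in Kasumi-1 at 8.46 and 8.0 and then 6.77 and 5.61 (-0.36, SE 0.14, adjusted p = 0.111). LINC00094, now BRD3OS and overlapping the bromodomain gene BRD3, was the sole member called lower in both lines. LINC00116, LINC00339 and TTC28-AS1 also had both treated libraries below both untreated ones in each line, but their Kasumi-1 changes did not pass. LINC00094 is described next. It went from 1.74 and 1.52 to 0.925 and 0.929 FPKM in HL60 (-0.45, SE 0.09) and from 2.47 and 2.31 to 1.48 and 1.81 in Kasumi-1 (-0.36, SE 0.09, limma adjusted p = 0.0258), and groups did not overlap in either line. Its Kasumi-1 call was lost without treated replicate 1 (-0.27), untreated replicate 1 (-0.33) or untreated replicate 2 (-0.40).

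LINC00085 rose in HL60 from 0.571 and 0.309 to 3.22 and 2.04 FPKM, 5.97-fold by the means (1.32, SE 0.18, limma adjusted p = 0.000605). LINC00341, now part of SYNE3, which encodes a nesprin of the nuclear envelope, rose from 4.98 and 5.99 to 8.86 and 9.66 FPKM (0.66, SE 0.15). HNRNPU-AS1 lies on the strand of HNRNPU, a nuclear matrix RNA-binding protein, and RefSeq now counts it as that gene. It was at 10.4 and 10.0 and then 10.4 and 9.37 FPKM, groups that overlap (-0.04, adjusted p = 0.734).

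Rises in HL60 included 3 antisense members whose sense genes rose as well. AKIRIN2-AS1 was at 8.29 and 6.83 FPKM in untreated and 27.6 and 26.5 in treated HL60, 3.58-fold higher (1.72, SE 0.18, limma adjusted p = 0.000136). Its partner AKIRIN2, a nuclear factor for proteasome import and inflammatory gene transcription, was at 13.4 and 12.4 and then 64.4 and 64.9 FPKM (2.24, SE 0.06). ZNF503-AS2 was at 0.250 and 0.297 and then 3.17 and 2.66 FPKM, 10.7-fold higher (1.62, SE 0.10, limma adjusted p = 1.39e-05), and the zinc finger repressor gene ZNF503 at 2.55 and 2.91 and then 14.5 and 13.8 (2.02, SE 0.09). For all of these genes, and for ZNFX1-AS1 with ZNFX1 (4.87 and 5.21, then 11.4 and 11.5 FPKM; 1.05, SE 0.07), treated libraries were above untreated ones. ZNF503-AS2 reached FPKM 1 only in treated HL60 and untreated Kasumi-1, so the member rule itself favoured its rise.

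Smaller rises were those of TRAF3IP2-AS1 and LINC00265. TRAF3IP2-AS1, antisense to an adaptor gene of interleukin-17 signalling, was at 5.02 and 3.97 and then 6.74 and 5.63 FPKM (0.39, SE 0.13, limma adjusted p = 0.0361), and the call was lost without treated replicate 1 (0.28) or untreated replicate 2 (0.25), with the HL60 groups fitted alone (adjusted p = 0.0849) or with no filter on low values (adjusted p = 0.118). LINC00265 was at 1.95 and 1.83 and then 2.43 and 2.15 FPKM (0.18, SE 0.07, limma adjusted p = 0.049). That call was lost in turn without each of 7 of the 8 libraries (0.12 to 0.21, adjusted p 0.0648 to 0.21), the exception being treated HL60 replicate 2, and under 4 other settings (adjusted p 0.059 to 0.0835).

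LINC00204A and LINC00204B (now FAM223A and FAM223B), and LINC00256A and LINC00256B (FAM225A and FAM225B), are pairs of near-identical copies whose reads the quantification may have shared. All 4 rose in HL60: LINC00256A from 0.379 and 0.320 to 1.29 and 1.59 FPKM (0.85, SE 0.08), LINC00256B by 0.75, LINC00204A by 0.62 and LINC00204B by 0.50. Each pair therefore may hold 1 change counted under both names. Without these copies and without the 5 members that are protein-coding today, 7 of 40 rose and 19 fell in HL60 (36.0% and 37.6% of all tested genes), and 5 rose and 2 fell in Kasumi-1 (10.1% and 16.2% of all). UCKL1-AS1 rose as well, from 0.455 and 0.368 to 1.12 and 1.20 FPKM (0.62, SE 0.08). UCKL1-AS1, LINC00256A, LINC00256B and LINC00204B reached FPKM 1 only in the treated HL60 libraries, so the member rule itself favoured their rise.

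In Kasumi-1 fewer members changed. Of 49, 5 rose, 3 fell and 41 did not pass (16.3% called, against 26.3% of all tested genes, 10.1% higher and 16.2% lower), and the median change was 0.03, against -0.04 for all. The treated libraries lay wholly above the untreated ones for 12 members and wholly below for 9 (25.6% and 35.9% of all tested genes). PCNA-AS1, antisense to the DNA polymerase clamp gene PCNA, rose most. It was at 1.10 and 1.25 FPKM in untreated and 4.86 and 4.55 in treated Kasumi-1 (1.39, SE 0.07, limma adjusted p = 0.000631), with no overlap. In HL60 it was listed at 0 or close to 0 in all 4 libraries, so 2 of the groups behind its pooled spread had almost none. PCNA itself was at 179 and 165 and then 169.8 and 153 FPKM in Kasumi-1, groups that overlap (-0.09, adjusted p = 0.464), so the antisense level went from 0.685% to 2.91% of the sense level. PCNA-AS1 overlaps PCNA, and without a stated strand setting their reads could not be told apart with certainty.

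The other Kasumi-1 calls were smaller, and each was lost when some library was left out. All 7 were also lost with no filter on low values (adjusted p 0.0657 to 0.137) and with the 4 Kasumi-1 libraries fitted alone (adjusted p 0.0557 to 0.131). ZNFX1-AS1 rose from 338 and 304 to 529 and 421 FPKM (0.56, SE 0.13, limma adjusted p = 0.0254), not called without treated replicate 1 (0.39), untreated replicate 1 (0.63) or untreated replicate 2 (0.48). AKIRIN2-AS1 rose from 1.80 and 3.05 to 4.11 and 4.52 FPKM (0.66, SE 0.18, limma adjusted p = 0.0374), and this call held only without untreated Kasumi-1 replicate 2. Without each of the other 7 libraries in turn its change was 0.39 to 0.71 (adjusted p 0.0524 to 0.135).

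FAM13A-AS1 rose in Kasumi-1 from 0.464 and 0.870 to 1.51 and 1.42 FPKM (0.57, SE 0.12), a call lost without treated replicate 1 (0.55) or 2 (0.60), and in HL60 from 0.801 and 0.653 to 1.17 and 1.17 (0.33, SE 0.12). The HL60 call was lost without any 1 HL60 library or either treated Kasumi-1 library (0.27 to 0.39), with a pseudocount of 0.1 (adjusted p = 0.066) and with no filter on low values (adjusted p = 0.123). ZNF503-AS2 went from 1.30 and 1.40 to 0.587 and 0.853 FPKM in Kasumi-1 (-0.45, SE 0.10, limma adjusted p = 0.0221), lost without treated replicate 1 (-0.34), untreated replicate 1 (-0.48) or untreated replicate 2 (-0.42), and ZNF503 fell there too, from 5.64 and 5.49 to 3.39 and 4.05. In all these members the groups did not overlap in Kasumi-1. FAM13A-AS1 reached FPKM 1 only in treated libraries, so the member rule itself favoured its rise in both lines. ZNF503-AS2 reached that level only in treated HL60 and untreated Kasumi-1, so the rule favoured its rise in HL60 and its fall in Kasumi-1.

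DNAJC3-AS1, beside a gene for an endoplasmic reticulum chaperone, was the sole member called lower in HL60 and higher in Kasumi-1. It was at 1.91 and 1.88 FPKM and then 0.738 and 0.797 in HL60 (-0.71, SE 0.09, limma adjusted p = 0.000449). In Kasumi-1 it was at 0.990 and 1.02 and then 1.35 and 1.80 (0.36, SE 0.09, limma adjusted p = 0.035), a call that held only without treated Kasumi-1 replicate 1 and was lost without each of the other 7 libraries (0.23 to 0.37). LINC00265 was called in Kasumi-1 as a fall, from 1.32 and 1.33 to 0.957 and 0.944 FPKM (-0.25, SE 0.07, limma adjusted p = 0.0406), lost without any 1 Kasumi-1 library or either untreated HL60 library (-0.26 to -0.25) and with median-ratio rescaling (-0.22, adjusted p = 0.0554).

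The difference between the changes, Kasumi-1 minus HL60, was tested in the same fit. It passed for 24 of 49 members (49%, against 63.1% of all tested genes), 15 with the higher change in Kasumi-1 and 9 with the higher change in HL60 (30.1% and 33.1% of all tested genes). The widest gaps were those of ZNF503-AS2 (-2.07, SE 0.14, limma adjusted p = 5.26e-05), LINC00339 (2.04, SE 0.23), LINC00422 (1.92, SE 0.32), MCM3AP-AS1 (1.45, SE 0.18), LINC00342 (1.43, SE 0.11), LINC00426 (1.43, SE 0.12), PCNA-AS1 (1.39, SE 0.09) and LINC00263 (1.27, SE 0.32). Of these, LINC00426 met the member rule through untreated HL60 alone, which favoured its gap. ZNF503-AS2 met the rule only through treated HL60 and untreated Kasumi-1, which favoured its gap as well. EPB41L4A-AS1 differed by 1.19 (SE 0.12), LINC00085 by -1.15 (SE 0.26) and AKIRIN2-AS1 by -1.06 (SE 0.25). For LINC00341 (-0.57, limma adjusted p = 0.0498) the call was lost without either treated HL60 library, untreated HL60 replicate 1, treated Kasumi-1 replicate 1 or untreated Kasumi-1 replicate 2 (-0.63 to -0.42). For LINC00116 (0.77, limma adjusted p = 0.0158) it was lost without treated HL60 replicate 2 or treated Kasumi-1 replicate 1 (0.65 each). With no filter on low values 4 of the calls named here were lost, those of LINC00263 (adjusted p = 0.0643), AKIRIN2-AS1 (adjusted p = 0.0504), LINC00116 (adjusted p = 0.0671) and LINC00341 (adjusted p = 0.156), and quantile normalization lost LINC00116 (0.59) and LINC00341 (-0.51). A pseudocount of 0.1 also lost LINC00341 (-0.64, adjusted p = 0.0597). The difference did not pass for ZNFX1-AS1 (-0.17, SE 0.19, adjusted p = 0.463) or LINC00094 (0.09, SE 0.12, adjusted p = 0.562), which were called in the same direction in both lines.

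**Figure D4:**
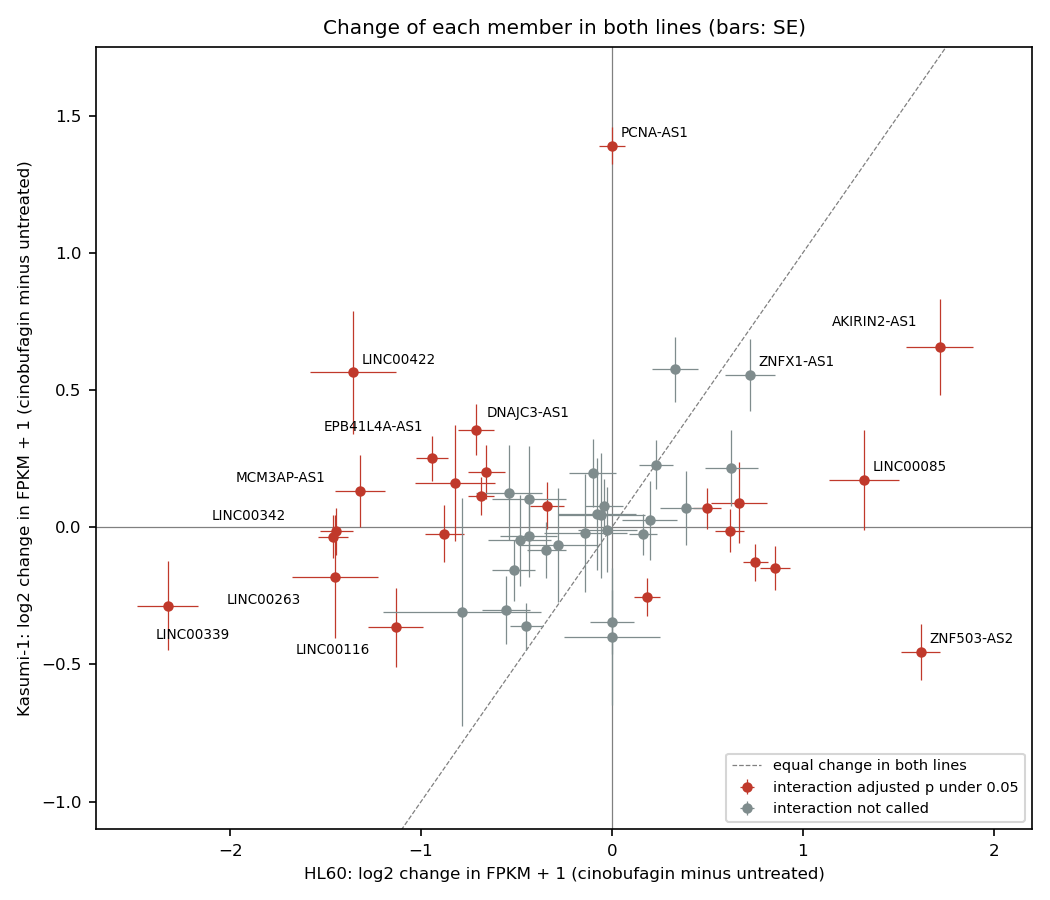
Change of each of the 49 members on the log2(FPKM + 1) scale in HL60 (horizontal) and Kasumi-1 (vertical), cinobufagin minus untreated, with bars for the SE; red points passed the test of the difference between lines and the dashed line marks equal change. Most points spread along the horizontal axis, from -2.33 to 1.72, with Kasumi-1 changes between -0.45 and 0.66 apart from PCNA-AS1 at 1.39.

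The antisense members were set beside the gene they are named for. All 29 had such a gene on 1 row, and 24 of these genes were tested. HNRNPU-AS1 is among the 24 by its name although RefSeq counts it as HNRNPU, with neither called in HL60 and HNRNPU alone called in Kasumi-1. In HL60, member and partner were both called in the same direction in 6 pairs and in opposite directions in 4. The member alone was called in 5 pairs, the partner alone in 6 and neither in 3. In Kasumi-1 the counts were 1, 0, 4, 6 and 13 in that order. Of all tested genes, 36.0% were called higher and 37.6% lower in HL60, and 10.1% and 16.2% in Kasumi-1. Unrelated genes would thus also form pairs called the same way, and whether these counts exceed that was not tested. Across the 24 pairs the changes in HL60 correlated with Pearson's r of 0.50, which is over genes that share the same libraries. The 6 pairs were AKIRIN2, ZNF503 and ZNFX1, described above, and BOLA3, EPB41L4A and FBXO22, whose antisense members fell with them.

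BOLA3, which helps to insert iron-sulphur clusters in mitochondria, fell in HL60 from 60.8 and 49.4 to 6.98 and 6.85 FPKM (-2.82, SE 0.13), and BOLA3-AS1 from 0.524 and 0.374 to 0.0730 and 0 (-0.48, SE 0.16, limma adjusted p = 0.0342). The call of BOLA3-AS1 was lost without any 1 HL60 library (-0.56 to -0.41). FBXO22-AS1 went from 31.8 and 25.4 to 23.9 and 18.0 FPKM (-0.44, SE 0.15, limma adjusted p = 0.0359), and without treated HL60 replicate 2 (-0.24), untreated HL60 replicate 1 (-0.28) or any 1 Kasumi-1 library (-0.44) it was not called. Its call was also lost with median-ratio rescaling (-0.38, adjusted p = 0.0511), with the HL60 groups fitted alone (adjusted p = 0.119) and with no filter on low values (adjusted p = 0.133), and that of BOLA3-AS1 with no filter (adjusted p = 0.122). EPB41L4A fell by 0.73, from 1.71 and 0.976 FPKM to 0.453 and 0.333.

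Opposite directions in HL60 were called for DNAJC3, PAN3, UCKL1 and ZNRD1. DNAJC3 rose by 0.71 (16.7 and 21.7, then 28.7 and 35.1 FPKM) while DNAJC3-AS1 fell. PAN3, a subunit of a poly(A) nuclease, rose by 0.89, while PAN3-AS1 went from 1.96 and 1.69 to 1.19 and 1.25 FPKM (-0.34, SE 0.10), a call lost without treated replicate 1 (-0.32) or 2 (-0.36) or untreated replicate 1 (-0.28), with quantile normalization (-0.17, adjusted p = 0.178) or with no filter on low values (adjusted p = 0.0623). UCKL1, a uridine-cytidine kinase, fell by 1.12 while UCKL1-AS1 rose by 0.62. ZNRD1, a subunit of RNA polymerase I, rose by 0.32 while ZNRD1-AS1 fell from 0.866 and 0.647 to 0.288 and 0.168 FPKM (-0.51, SE 0.11).

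Antisense levels were not a fixed share of sense levels. The antisense mean was above the sense mean in 11 of 29 pairs in untreated HL60 and 10 in untreated Kasumi-1, and under 10% of it in 11 and 8. TTC28-AS1 was at 7.90 and 5.81 FPKM in untreated HL60 where TTC28 was at 0.0306 and 0.0140, whereas in untreated Kasumi-1 they stood at 8.94 and 8.87 against 3.83 and 4.67. C17orf76 was at 0.0680 and 0.132 FPKM in untreated HL60, where C17orf76-AS1 was at 1062 and 1055. Between the untreated lines, 11 of the 24 tested pairs were called in the same direction and 2 in opposite directions. Of all tested genes, 35.9% were called higher and 33.8% lower in Kasumi-1.

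**Figure D5:**
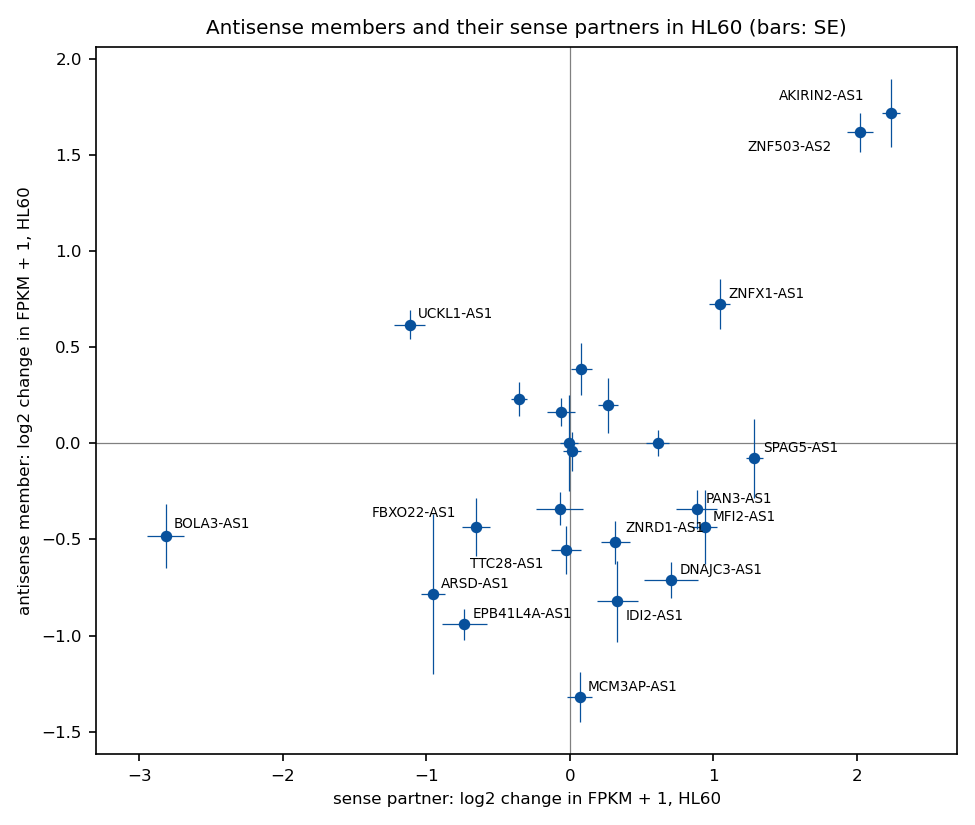
Change in HL60 on the log2(FPKM + 1) scale of 24 antisense members (vertical) against that of the gene each is named for (horizontal), cinobufagin minus untreated, with bars for the SE. AKIRIN2-AS1, ZNF503-AS2 and ZNFX1-AS1 lie at the upper right with their partners, MCM3AP-AS1 fell by 1.32 where MCM3AP changed by 0.07, and UCKL1-AS1 lies at the upper left.

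Of 35 other long noncoding RNAs on a list of well-known ones, 31 had a row and 21 were tested. In HL60 8 rose and 4 fell (57.1% called, against 73.6% of all tested genes), and in Kasumi-1 4 rose and 2 fell (28.6%, against 26.3%). The HL60 rises include SCARNA2, RN7SK and RN7SL1, and the Kasumi-1 rises include RN7SK. These are of the short RNA kind that 1 of the alternative fits left out. NEAT1, the scaffold of nuclear paraspeckles, rose in HL60 from 98.5 and 86.3 to 199 and 161 FPKM (0.95, SE 0.12, limma adjusted p = 0.00039). MALAT1, of nuclear speckles, fell from 14.7 and 14.4 to 9.22 and 8.45 (-0.66, SE 0.07). DLEU1 fell from 41.6 and 38.4 to 4.64 and 5.70 FPKM (-2.74, SE 0.11), a change larger in size than that of LINC00339. MIR22HG, the host of miR-22, rose from 0.146 and 0.0947 to 2.61 and 2.42 (1.65, SE 0.10), TUG1 rose by 0.78, and MIR17HG, the host of an oncogenic microRNA cluster, fell by 0.96. RN7SK, a transcription elongation regulator that lacks a poly(A) tail, was called higher in both lines (2.79 in HL60, 1.49 in Kasumi-1). In Kasumi-1 NEAT1 rose by 0.56 and MALAT1 by 0.29, and the list's 6 calls there fell to 1 without treated replicate 1, treated replicate 2 or untreated replicate 1. In HL60 the list's 12 calls became 8 without treated replicate 1 or untreated replicate 1.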

How the data were processed

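The authors deposited 1 table of FPKM values for the 8 libraries, all of whose sample columns were used. Per the labels' protocols, the RNA kit was RNeasy and the library kit TruSeq Stranded mRNA. The reads were processed on build hg19 with Cufflinks 2.2.1, HISAT2 2.1.0 and bcl2fastq 2.20.0, per the submitters' processing notes. Neither annotation nor strand setting is given in the sources used here, and overlapping antisense and sense genes may share reads. Depth is unknown too, and a 0 was not taken to mean that a transcript was absent.

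From the deposited FPKM values, log2(FPKM + 1) was fitted with limma 3.58.1 in R 4.3.3 for every row that reached FPKM 1 in 2 or more of 8 libraries. The model had 1 mean per group over all 8 libraries (4 residual degrees of freedom) and an intensity trend in the variances. Benjamini-Hochberg adjustment ran over all tested rows of each comparison, and the threshold was 0.05. The fit was also run on simulated data with independent noise and few changed rows, all above FPKM 1. That run cannot show how the fit does for low members or where most genes change. Fold changes by the means are ratios of mean FPKM without a pseudocount.

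The members and gene lists were chosen with earlier results of these data known. Members were named by a rule: up to 10 per direction in HL60 and 6 in Kasumi-1 with the largest change among calls whose higher group averaged FPKM 2 or more and whose libraries did not overlap, up to 6 per direction by difference between lines, the 6 highest in each untreated line, and fixed names (of these LINC00152, EPB41L4A-AS1, LINC00116 and LINC00094 were members). Other members are named where a count or pair turns on them, chosen after their values were seen. RefSeq tables (GRCh38.p14) matched 47 of 49 members, 21 under another symbol, and gave promoters and neighbouring genes within 25 kb; classes such as snoRNA hosts were assigned afterwards. Alternatives were a pseudocount of 0.1, no filter, a filter at FPKM 5, median-ratio rescaling, quantile normalization, the contrast's groups fitted alone, a replicate block, no variance trend, removal of short RNAs and repeated symbols, and leaving out each library. Added after the data were seen were 2 restrictions of the members (level in whole groups, and no near-identical copies or protein-coding genes). One of the marker genes listed for other cell types is not reported here.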

Additional observations from a re-analysis of the deposited data

Results flagged for a closer look

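For 24 of the 49 members (49%, against 63.1% of all tested genes), the change under cinobufagin differed between the lines by the test of the difference itself (limma, adjusted p under 0.05). In these differences, Kasumi-1 minus HL60 on the log2(FPKM + 1) scale, a positive value means a lower or more negative change in HL60. The 15 positive ones were LINC00339 at 2.04, LINC00422 at 1.92, MCM3AP-AS1 at 1.45, LINC00342 at 1.43, LINC00426 at 1.43, PCNA-AS1 at 1.39, LINC00263 at 1.27, EPB41L4A-AS1 at 1.19, DNAJC3-AS1 at 1.07, IDI2-AS1 at 0.98, LINC00467 at 0.86, LINC00338 at 0.85, C17orf76-AS1 at 0.80, LINC00116 at 0.77 and HOXA11-AS1 at 0.42. The 9 negative ones were ZNF503-AS2 at -2.07, LINC00085 at -1.15, AKIRIN2-AS1 at -1.06, LINC00256A at -1.0, LINC00256B at -0.88, UCKL1-AS1 at -0.63, LINC00341 at -0.57, LINC00265 at -0.44 and LINC00204B at -0.43. HOXA11-AS1 lost its call without any 1 of 5 libraries (0.31 to 0.42) and IDI2-AS1 without any 1 of 4 (0.84 to 1.01), and both lost it with no filter on low values (adjusted p 0.055 and 0.108). PCNA-AS1 was listed at or close to 0 in HL60 with and without the drug, so its difference is the rise in Kasumi-1. The member rule favoured the differences of LINC00256A, LINC00256B, LINC00204B and UCKL1-AS1, which reached FPKM 1 only in treated HL60. The same holds for LINC00426 and LINC00467, which reached that level only in untreated HL60. It holds too for ZNF503-AS2, which reached FPKM 1 only in treated HL60 and untreated Kasumi-1. ZNF503-AS2 and LINC00265 had calls in both lines, upward in HL60 and downward in Kasumi-1, and DNAJC3-AS1 had the reverse.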

How the results depend on the processing

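Under up to 17 alternatives in which a member could be tested no called change reversed, and 25 of 34 HL60 calls, 1 of 8 Kasumi-1 calls (PCNA-AS1), 18 of 24 differences between lines and 20 of 31 differences between untreated lines were kept in all of them. With the filter at FPKM 5 only 16 members were tested. Calls were then 14 in HL60, 2 in Kasumi-1, 10 for the difference between lines and 9 between untreated lines. With that filter, members now known to encode small proteins had 1 call in HL60 (2 in the fit as reported) and 0 in Kasumi-1 (1 as reported), and antisense members and partners called the same way were 3 in HL60 and 0 in Kasumi-1. Fitting the contrast's groups alone left 1 Kasumi-1 member, 1 other long noncoding RNA, 0 small-protein members and 0 antisense pairs, and no filter left 1, 1, 0 and 0. At an unadjusted limma p under 0.05 the small-protein members called in Kasumi-1 were 2 with the groups alone, 1 with no filter and 1 with the filter at FPKM 5. Pairs called the same way in Kasumi-1 numbered 2 with median-ratio rescaling and 2 with quantile normalization. The cause was not tested where the number of genes or samples was the same.

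Leaving out each library gave 28 to 32 calls in HL60, 3 to 6 in Kasumi-1, 22 to 26 for the difference and 23 to 31 between untreated lines. Other long noncoding RNAs gave 8 to 13 in HL60 and 1 to 4 in Kasumi-1, small-protein members 2 in HL60 and 0 to 1 in Kasumi-1, and antisense pairs 4 to 5 in HL60 and 0 to 1 in Kasumi-1. Replicate numbers are shared by name only. The deviations of same-numbered treated and untreated libraries correlated at 0.308 (HL60) and 0.434 (Kasumi-1). With a replicate block, calls were 34 in HL60, 10 in Kasumi-1, 27 for the difference and 36 between untreated lines, other long noncoding RNAs in Kasumi-1 numbered 9, small-protein members there 2 and antisense pairs there 3, while FAM13A-AS1 was not called in HL60 (adjusted p = 0.0526).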

Other observations

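Neighbouring protein-coding genes within 25 kb were counted for all members that RefSeq places. In HL60, 25 pairs of a member and a tested gene that overlaps it held 5 called in the same direction, 5 in opposite directions, 4 with the member alone, 7 with the gene alone and 4 with neither. The 27 pairs with a gene that flanks the member held 9, 7, 4, 7 and 0 in that order. Between the untreated lines, the overlapping pairs held 11, 2, 2, 6 and 4 and the flanking pairs 10, 2, 5, 8 and 2. Of all tested genes, 73.6% were called in HL60 and 69.7% between the untreated lines. Whether the pair counts exceed those of unrelated genes was not tested. Among pairs called in opposite directions in HL60, LINC00338 fell by 0.88 where SEC14L1, a lipid-binding protein gene that overlaps it, rose from 8.45 and 9.07 to 27.2 and 28.8 FPKM, and the libraries of each gene did not overlap. UCKL1-AS1 rose by 0.62 where ZNF512B fell from 11.4 and 11.0 to 2.02 and 2.08 FPKM. LINC00341 rose by 0.66 where GLRX5, a mitochondrial glutaredoxin of iron-sulphur cluster assembly, had a change of -0.67.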
